A study of Homo sapiens with 4 samples.

Results

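The cassette exons of 10 genes for splicing regulators were examined. These genes encode the SR proteins SRSF2, SRSF3, SRSF4, SRSF5, SRSF6 and SRSF7, the SR-like proteins SRSF10 and SRSF11, and the transformer-2 proteins TRA2A and TRA2B. The exons were taken by gene symbol, and the genes were chosen with earlier results of these data known. Each of the 10 genes had at least 1 exon. A cassette exon event is an exon with a given pair of flanking exons that is either spliced in or skipped. The authors' deposited table held 46 such events of these genes among 31408, and they covered 38 unique exons among 27483.

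The libraries came from 4 clones of HEK293T, an established human embryonic kidney line. All 4 clones were derived from single cells after transfection with a Cas9 plasmid and guides placed on both sides of RBFOX2, and PCR genotyping assigned 2 to WT and 2 to RBFOX2 KO. Each library is thus 1 clone. RBFOX2 (also RBM9) is a splicing regulator that binds GCATG, and the splicing data were collected to link its binding sites to regulated exons. The authors' deposited table compares a first with a second set of libraries and does not name the sets, so differences are given as first minus second set and not as a gain or loss on knockout. Levels of single libraries are not used here, because their columns could not be tied to clones. The spread between clones is therefore not given, and each difference stands only with the authors' own p-value and false discovery rate (FDR). The junction counts stand in the same unused columns, so the depth behind each event is not given here. Loss of RBFOX2 in the KO clones was not checked.

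SR proteins carry RNA-recognition motifs and a domain rich in arginine and serine, bind enhancers in exons and help the spliceosome to choose splice sites. Many of their own genes contain a poison exon, a conserved cassette exon with a stop codon in frame. Including it exposes the mRNA to nonsense-mediated decay, and several SR and TRA2 proteins are known to promote inclusion of their own poison exon, which limits their level.

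Of the 38 exons, 36 could be matched to transcripts of GENCODE 29 by gene, exon length and the lengths of the flanking introns. When the reading frame of a coding transcript was carried across the upstream junction into the exon, 14 exons in 7 genes (SRSF3, SRSF4, SRSF6, SRSF7, SRSF11, TRA2A and TRA2B) held a stop codon; they are called early-stop exons below. Another 14 exons were fully coding in a protein-coding transcript, and 8 matched exons were neither. For 4 of these 8 no frame could be carried in.

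The exons on which the results turn are shown first, 5′ to 3′ on the strand of the gene. Sequences are from GENCODE 29 transcripts. Positions are those of the authors' deposited table, in hg19 per the submitters' processing notes. For 3 short exons the whole sequence is shown, because they carried most of the low p-values. In the SRSF10 exon the capitals mark the 3 bases that a second version of the exon, of 51 nt, lacks. In the SRSF11 exon they mark the early stop, and the SRSF7 exon is coding throughout.
SRSF10, 54 nt, chr1:24298063-24298116, minus strand: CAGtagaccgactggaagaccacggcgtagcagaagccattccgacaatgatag
SRSF11, 33 nt, chr1:70712800-70712832, plus strand: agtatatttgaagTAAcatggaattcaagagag
SRSF7, 36 nt, chr2:38973286-38973321, minus strand: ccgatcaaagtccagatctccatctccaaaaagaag

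For the larger early-stop exons, the stretch from the first base of the exon to the stop (capitals) is shown, since the stop is what defines this class. For TRA2A only the 30 bases that end in the stop are shown.
SRSF3, 456 nt, chr6:36567598-36568053, plus strand: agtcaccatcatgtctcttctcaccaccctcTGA
SRSF4, 195 nt, chr1:29486376-29486570, minus strand: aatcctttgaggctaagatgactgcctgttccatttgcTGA
SRSF4, 228 nt, chr1:29486376-29486603, minus strand: atttaacaaagacctcaatgtttTAA
SRSF6, 268 nt, chr20:42087793-42088060, plus strand: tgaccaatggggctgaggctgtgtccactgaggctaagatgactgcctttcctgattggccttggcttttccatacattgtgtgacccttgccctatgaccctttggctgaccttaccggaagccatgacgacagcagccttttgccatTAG
SRSF7, 276 nt, chr2:38976040-38976315, minus strand: ggcagaaaatttgagacggTGA
SRSF7, 449 nt, chr2:38976040-38976488, minus strand: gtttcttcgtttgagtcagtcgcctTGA
TRA2A, 301 nt, chr7:23561751-23562051, minus strand: aaaaaattgaacagaagattggtcagaTAG
TRA2B, 276 nt, chr3:185649365-185649640, minus strand: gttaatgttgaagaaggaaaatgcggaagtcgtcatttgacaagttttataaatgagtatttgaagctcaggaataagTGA

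**Figure D1:**
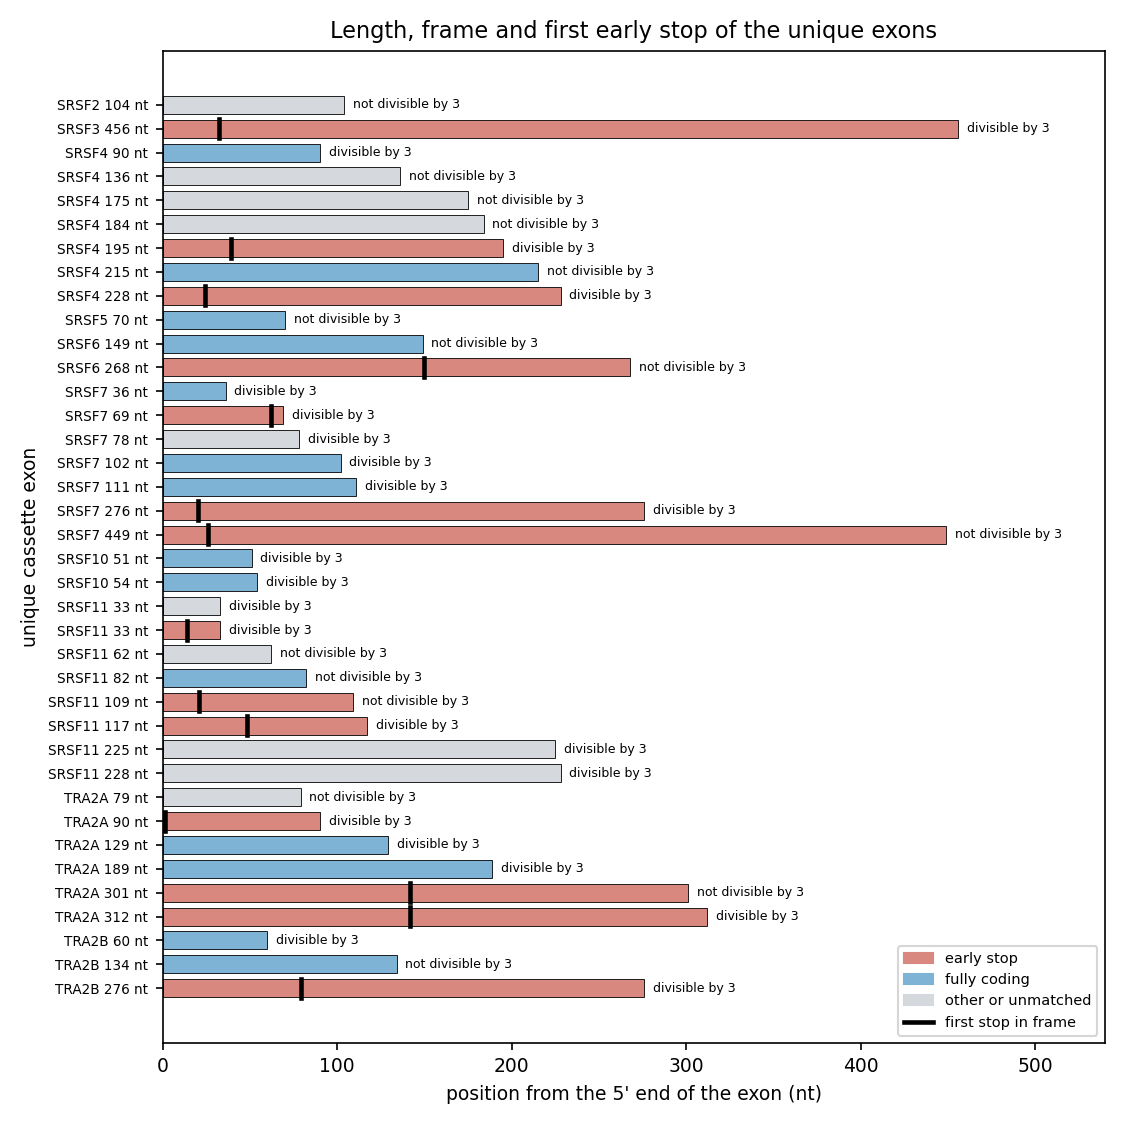
Length of the 38 unique exons in nt, with the first stop codon read in frame (black line), the coding status (colour) and whether the length is divisible by 3. Early stops lie near the 5′ end in SRSF3 and SRSF7 (276 and 449 nt) and about midway in SRSF6 and TRA2A (301 and 312 nt).

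The listed inclusion differences were small for most events of these genes. The median absolute difference over the 46 events was 0.013 on the inclusion scale from 0 to 1, and over all events of the authors' deposited table it was 0.048. A difference of under 0.1 was listed for 40 of the 46 events and one of under 0.02 for 30. An absolute difference of at least 0.1 was found for 13.0% of the events of the 10 genes and 31.5% of all events.

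An event was called when its deposited FDR was under 0.05 and its absolute difference at least 0.1. This held for 2 of the 46 events (4.35%), against 5.15% of all events of the authors' deposited table. By unique exon it was 2 of 38, or 5.26%, against 5.73%. Both shares lie near the background. At least 1 called event was found in 2 of the 10 genes, SRSF10 and SRSF11, where the background over all genes was 13.7%. The FDR limit alone was met by 6 of the 46 events (13.0%), against 6.12% of all events, and 4 of these 6 fell short of the minimum difference. Among all events under the FDR limit, 15.8% fell short of it. The events under the FDR limit had a median absolute difference of 0.0735 in the 10 genes and 0.234 in the whole table.

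**Figure D2:**
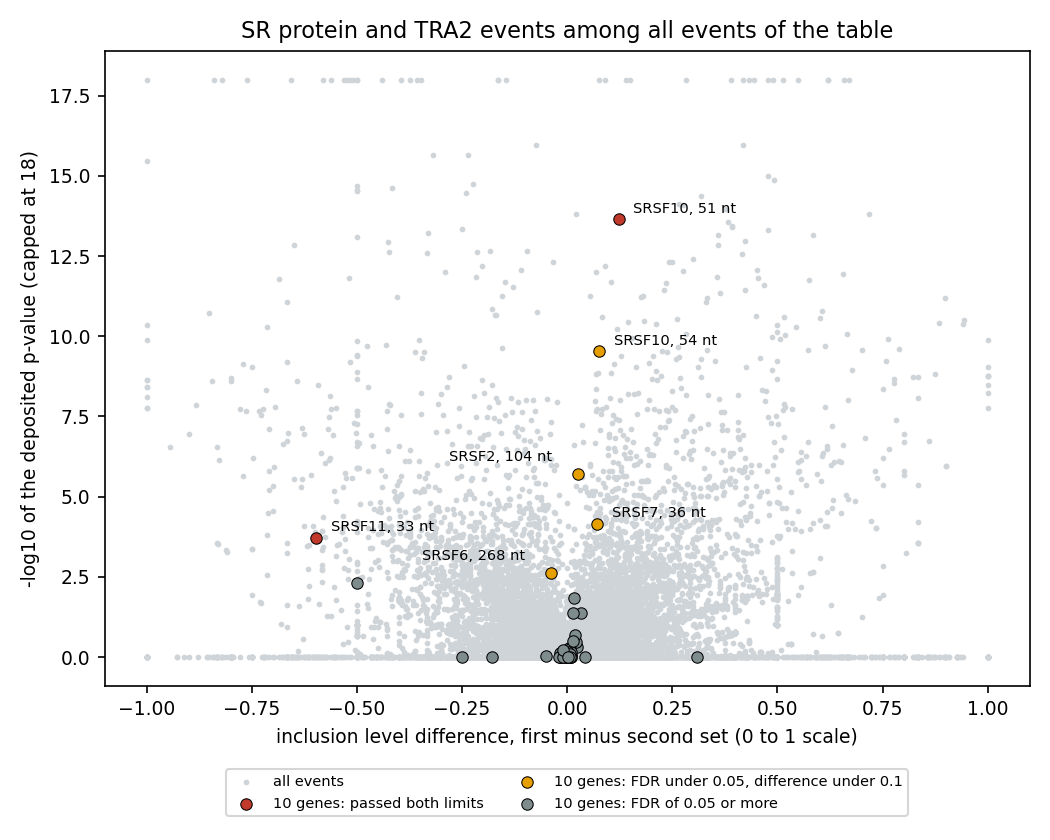
Inclusion level difference (horizontal axis, first minus second set) and −log10 of the deposited p-value (vertical axis, capped as labelled) for all 31408 events (pale points) and the 46 events of the 10 genes (large points). The 6 labelled events had an FDR under 0.05; 4 of them lie within 0.1 of no difference.

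SRSF10 gave the lowest p-values. It encodes an SR-like factor that is known as a splicing repressor when dephosphorylated. The 51-nt and 54-nt exons share their 3′ end, and their 5′ ends lie 3 bases apart. Both are fully coding, and both are followed by an intron of 3849 nt. They have the same skipping junction and the same downstream junction, so their values are not independent. The authors' deposited table gave the 51-nt exon a difference of 0.122, with a p-value of 2.22e-14 and an FDR of 1.2e-11. It stood at rank 58 of the 31408 p-values. For the 54-nt exon, the authors' deposited table listed 0.076 at an FDR of 5.86e-08, so this version passed the FDR limit and not the minimum difference. For both versions inclusion was thus higher in the first set. Skipping keeps the frame: the coding transcript with the 51-nt exon has 182 codons and has 165 without it, and the stop then still lies in the last exon. The version of 54 nt adds 1 codon, for 183 codons.

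SRSF11, which encodes a serine- and arginine-rich protein with an RNA-recognition motif, had the largest difference of the 46 events. The authors' deposited table gave its 33-nt early-stop exon, printed above, a difference of -0.597 (p = 0.000191, FDR 0.00538), so that inclusion was higher in the second set. That event pairs the exon with a 3′ intron of 2781 nt. A second event pairs the same exon with an acceptor site 21 nt farther downstream, and there the authors' deposited table listed -0.01 (p = 0.612). The call was thus listed with only 1 of the 2 flanking acceptors. Both events share the upstream junction of the exon, so their values are not independent. The called combination matched no GENCODE 29 transcript, whereas the other one matched a transcript without annotated coding sequence. Read in the frame of the coding transcript, the exon meets TAA at its base 14, with 17 nt of the exon left.

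The other SRSF11 exons had FDR values of 1 in the authors' deposited table. The early-stop exons of 109 and 117 nt are neighbours and were listed both together and apart. Their differences in the authors' deposited table lay between -0.051 and 0.007, with p-values from 0.698 to 1. A TGA begins at base 21 of the exon of 109 nt and at base 48 of the exon of 117 nt. Exons of 225 and 228 nt, which share their 3′ end and contain an annotated start codon, both had -0.018 in the authors' deposited table. The fully coding 82-nt exon had -0.01 there; without it the reading frame ends after 330 codons instead of 424. An unmatched exon of 62 nt had -0.18 at a p-value of 1, and the first 33-nt exon, at chr1:70688449-70688481, had -0.001.

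The single SRSF2 exon showed a small difference with a low p-value. SRSF2 encodes a founding SR protein, also called SC35, that binds both G-rich and C-rich enhancers. The exon, of 104 nt (chr17:74731854-74731957, minus strand), lies after the stop codon in a transcript annotated for nonsense-mediated decay. The authors' deposited table listed 0.026 (p = 1.91e-06, FDR 0.000112). The first set was higher by less than 0.1, so the exon was not called.

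SRSF7 encodes an SR protein with a zinc knuckle that also acts in mRNA export. Its 36-nt coding exon, printed above, was listed at 0.071 (p = 7e-05, FDR 0.00239) in the authors' deposited table and was not called. Skipping this exon removes 12 codons, from 238 to 226, without a shift in frame. The poison exon of SRSF7 was listed in versions of 276 and 449 nt that share their 3′ end. The authors' deposited table gave the shorter version -0.003 at a p-value of 1 and the longer version 0.016 (p = 0.0149, FDR 0.17). Neither was called. A 69-nt early-stop exon, with TAA at base 62, had -0.001 (p = 1) in the authors' deposited table. Versions of another exon with a common 5′ end, of 78, 102 and 111 nt, had 0.008, 0.006 and 0.002 there, each with a p-value of 1. The longer versions are coding, and the 78-nt version lies in a transcript without annotated coding sequence.

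In SRSF3, SRSF4, SRSF5 and SRSF6 the early-stop exons and the exons fully coding in a protein-coding transcript differed by less than 0.05 between the sets. The SRSF4 exons of 136, 175 and 184 nt belong to neither class, and 2 of them, of 136 and 184 nt, had larger values, given below. SRSF3 encodes the smallest SR protein and is known to include its own poison exon. The authors' deposited table gave this exon, of 456 nt, 0.004 (p = 0.519). For the SRSF6 poison exon of 268 nt the authors' deposited table listed -0.039 (p = 0.00236, FDR 0.0408). It was thus the only early-stop exon besides the SRSF11 exon with an FDR under 0.05, and it did not reach the minimum difference. The coding SRSF6 exon of 149 nt had -0.006 in the authors' deposited table at a p-value of 1. Without that exon the frame ends after 68 codons instead of 344, and 318 nt before the last junction.

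SRSF4 had 7 exons, among them a pair of early-stop versions of 195 and 228 nt with a common 3′ end. In the authors' deposited table their differences were 0.01 (p = 0.685) and 0.019 (p = 0.211). The coding exons of 90 and 215 nt had -0.016 and 0.004 there. SRSF4 also held the largest difference that was not called. The authors' deposited table listed -0.5 for an exon of 184 nt when it follows the 136-nt exon (p = 0.00493, FDR 0.072). When the same exon follows a more distant exon, the table listed 0.001 at a p-value of 1. The 136-nt exon likewise had -0.25 (p = 1) when followed by the 184-nt exon and 0.014 (p = 0.318) otherwise in the authors' deposited table. A further exon of 175 nt had 0.043 at a p-value of 1. SRSF5 had only a 70-nt coding exon, at 0.006 and 0.003 in its 2 events in the authors' deposited table, both at a p-value of 1. Skipping it would end the frame after 104 codons instead of 272.

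The transformer-2 genes encode a pair of related activators that bind GAA-rich enhancers, and each has a poison exon near its start. The TRA2B poison exon of 276 nt was listed at 0.007 (p = 0.576) in the authors' deposited table. Its TGA begins at base 79. The 134-nt TRA2B exon that follows it is coding, and the authors' deposited table gave 0.013 at a p-value of 0.0437 (FDR 0.376). Without it the frame ends after 13 codons instead of 288. The third TRA2B exon, of 60 nt and coding, had 0.008 at a p-value of 1 in the authors' deposited table. None of the 3 was called.

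A TRA2A early-stop exon was listed in versions of 301 and 312 nt with a common 5′ end and TAG at base 142. The authors' deposited table gave the 312-nt version 0.021 at a p-value of 0.342. The 301-nt version was listed at 0.006 with the more distant upstream exon, where its p-value was 0.828. After the 90-nt exon it was listed at 0.309 with a p-value of 1, so this large value did not pass the test. A short version of 79 nt, without a stop of its own, had 0.032 at a p-value of 0.0422 (FDR 0.366) in the authors' deposited table. An exon of 90 nt, which begins with TGA in the frame of a coding transcript, had 0.01 (p = 0.885) and 0.003 (p = 0.677) in the authors' deposited table. All GENCODE 29 transcripts that matched the 90-nt and 301-nt exons hold them before a later start codon. The 312-nt version matched only a transcript without annotated coding sequence. Of these TRA2A exons, only the 79-nt version matched a transcript annotated for nonsense-mediated decay. The coding exons of 129 and 189 nt had 0.024 and -0.013 in the authors' deposited table.

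**Figure D3:**
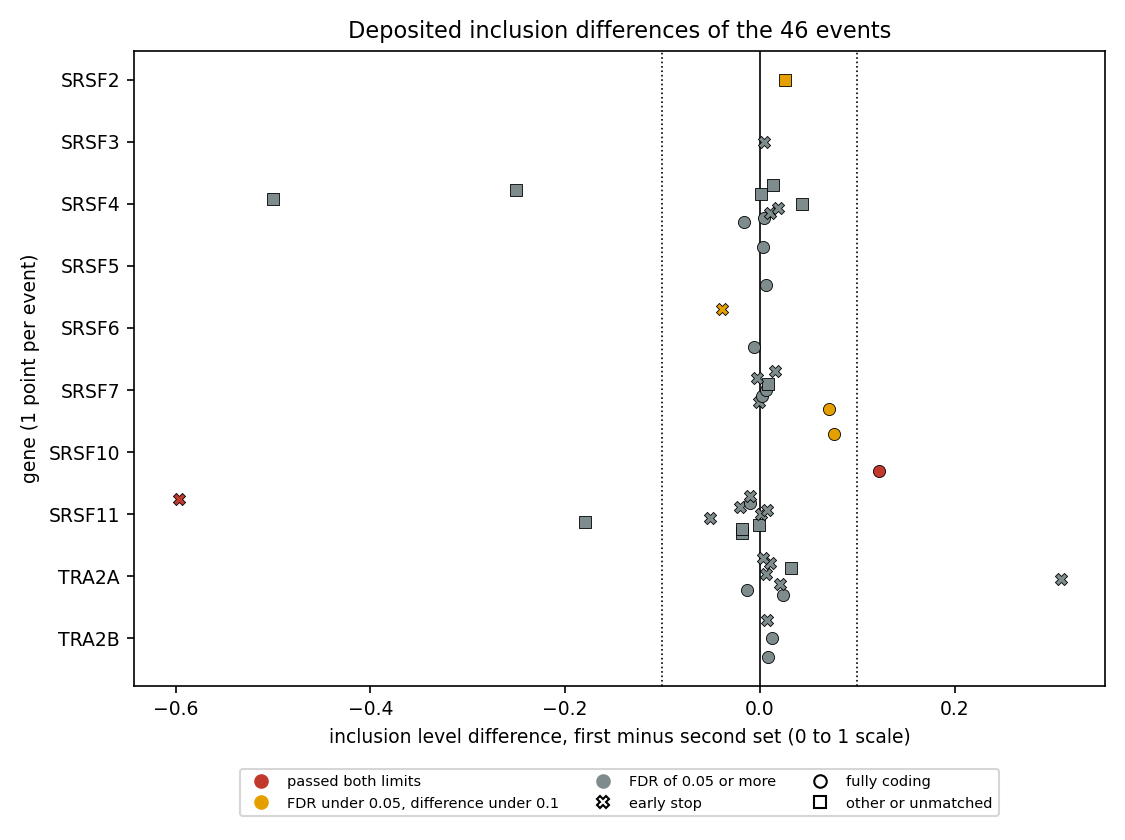
Inclusion level difference (first minus second set) of the 46 events by gene, 1 point per event. Colour gives the FDR and the difference limit and shape the coding status of the exon; dotted lines mark 0.1 in each direction. Outside them lie 1 event each of SRSF10 and TRA2A and 2 each of SRSF4 and SRSF11.

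Over the 19 events of early-stop exons, the first set was higher in 12 and the second in 7. The absolute difference was under 0.05 in 16 of these events, with a median of 0.01. The 15 events of fully coding exons had the same median of 0.01. An FDR under 0.05 was listed for 2 of the 19 early-stop events and 3 of the 15 coding events, and each class had 1 called event. In both classes most listed differences were thus close to 0, and no test between the classes was made. An exon that is almost always skipped, or almost always included, in both sets can show only a small difference. Inclusion levels were not used here, so such exons cannot be told apart from exons at intermediate levels.

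Most large differences belonged to exons that were listed more than once. Of the 38 exons, 8 were listed with 2 pairs of flanking exons, and in 4 of these the 2 differences lay more than 0.1 apart. These 4 were the 33-nt exon of SRSF11, the 184-nt and 136-nt exons of SRSF4 and the 301-nt exon of TRA2A. In each of the 4, the event nearer to 0 was listed between -0.01 and 0.014 in the authors' deposited table. Of the 6 events with a difference of at least 0.1, 3 had a p-value of 1 and 3 matched a GENCODE 29 transcript with both introns; over all 46 events, 41 did.

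**Figure D4:**
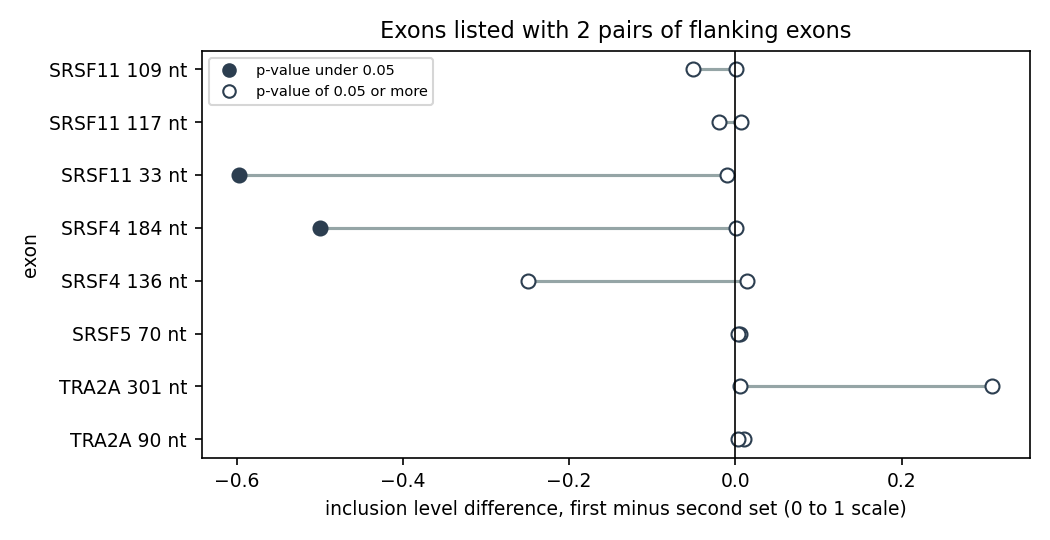
Inclusion level differences (first minus second set) of the 8 exons listed with 2 pairs of flanking exons, joined by a line; filled points have a p-value under 0.05. In 4 exons the points lie more than 0.1 apart, and in each of these 4 one point is close to 0.

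The lengths and coding status of the exons are given as a description. The genes are known for poison exons, so the shares of early-stop and fully coding exons are not independent of their choice. Lengths were multiples of 3 for 23 of the 38 exons, or 60.5% (Wilson 95% interval 44.7% to 74.4%, for counting error only), and for 40.7% of all unique exons. Among the early-stop exons 10 of 14 had such a length, and among the fully coding exons 9 of 14. Of the exons with a known frame, 43.8% of the 32 in these genes and 17.6% of the 20858 in the whole table held an early stop. Fully coding exons made up 38.9% of the matched exons here and 66.1% over the table. Median lengths were 123 nt here and 117 nt over the table. Exons with a second version that shares 1 end numbered 14 of the 38. Exons of 1 gene overlap in this way, so they are not independent.

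The early-stop exons of the paralogs SRSF4 and SRSF6 share a run of 20 bases. It is the longest run common to exons of different genes among the 553 pairs compared, and the next longest had 13. It starts at base 8 of the 195-nt SRSF4 exon and at base 29 of the SRSF6 exon:
SRSF4 and SRSF6: tgaggctaagatgactgcct

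The elements GCATG and GAAGAA were searched on the transcript strand of the exons only, since intron sequence was not used here. GCATG, the RBFOX element, was present in 3 of the 36 matched exons (8.33%) and in 11.6% of all 24785 matched exons. These were the SRSF3 exon of 456 nt, the SRSF4 exon of 175 nt and the TRA2B exon of 276 nt, with 1 copy each. Among exons within 10% of their lengths, the shares with GCATG were 35.2%, 14.6% and 20.9%. GAAGAA, a form of the enhancer that TRA2 proteins bind, was present in 7 of the 36 exons (19.4%) and in 11.7% of all matched exons. The 7 include overlapping versions, the SRSF7 exons of 276 and 449 nt and the TRA2A exons of 79, 301 and 312 nt. They are therefore not independent, and the same bases are counted more than once in the 19.4%. The TRA2A exons of 301 and 312 nt had 4 copies each and the TRA2B exon of 276 nt had 3, counting overlapping copies. Of exons within 10% of these lengths, 18.5%, 18.7% and 16.1% held at least 1 copy. A match is a description of these letters and not of binding.

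Other genes of the pathway were taken from a list of 36: further SR and SR-related proteins, kinases of SR proteins, splice-site partners and factors of nonsense-mediated decay. Of these, 30 had events, 141 in all, and 11 events (7.8%) in 7 genes were called in the authors' deposited table, against 5.15% of all events. The called events include a pair of overlapping exons with a common end in U2AF1L4 and another such pair in UPF3A, both given below. These calls are therefore not independent, and the 7.8% counts each exon of a pair separately. SRSF1, the only one of the 4 further SR proteins with events, had 2 events and 0 calls. Among the kinases, 4 of 29 events were called (13.8%). For the splice-site partners it was 2 of 18 (11.1%) and for the decay factors 4 of 44 (9.09%). The called events of the splice-site partners are the U2AF1L4 pair alone, and those of the decay factors include the UPF3A pair. CLK4, a kinase that phosphorylates SR proteins in the nucleus, had 0.275 for a coding 91-nt exon (FDR 4.3e-05) and 0.401 for an 836-nt early-stop exon (FDR 0.00179) in the authors' deposited table. That table also listed 0.128 for a 97-nt exon of CLK3 (FDR 0.00938) and 0.239 for a 93-nt exon of SRPK2 (FDR 0.000174), both coding.

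U2AF1L4, a relative of the factor that recognises the 3′ splice site, had overlapping exons of 67 and 113 nt. The authors' deposited table gave them 0.392 and 0.382, with FDR values of 2.04e-11 and 1.45e-11. For UPF3A, a decay factor which acts with the core factor UPF2, overlapping exons of 142 and 99 nt had 0.485 (FDR 4.8e-06) and 0.375 (FDR 9.15e-05) in the authors' deposited table. LUC7L3, an SR-related protein of the U1 complex, had 0.297 for a 66-nt exon (FDR 0.0138) in the authors' deposited table, and 1 of the 48 events of its group was called.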

How the data were processed

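The 4 RNA-seq libraries were ribosome-depleted and strand-specific, per the labels' protocols. The authors deposited a single table of skipped exons in the rMATS junction-count format, per the file headers. The submitters' processing notes name STAR 2.7.3a and hg19; the rMATS version, annotation and read filters are not given in the sources used here. The p-value and FDR are those the authors deposited, and the FDR is adjusted over all 31408 events. The deposited inclusion difference, a score from -1 to 1, was read as first minus second set, the rMATS convention. Only reads over junctions enter it, scaled by deposited effective lengths of 94 nt for skipping and up to 188 nt for inclusion. The 6 columns of values per library were not used, because no name ties them to a clone; this also leaves out depth and the spread between clones.

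Because the annotation is on another build (GRCh38), a GENCODE 29 transcript was taken to match when its gene, the length of the exon and both neighbouring intron lengths were equal. Frames came from protein-coding transcripts that hold the upstream exon. Calls needed an FDR under 0.05 and an absolute difference of at least 0.1. All exons of the 10 genes are named, and of the other listed genes those with a call, except that 1 result is not reported here. Members and lists were chosen with earlier results of these data known. The alternatives were other limits, Bonferroni correction and looser matching. The planned search for GCATG in flanking introns was not run, since no genome sequence was used here. The code for the calls and the stop search was run on simulated data with known answers. That run checks the code only and not the error rate of calls in these data. Scripts ran in Python 3.11.15 with scipy 1.17.1, numpy 2.4.6 and pandas 2.3.3, and figures were drawn with matplotlib 3.10.9.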

Additional observations from a re-analysis of the deposited data

How the results depend on the processing

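The 2 called events, exons and genes were also 2 at an FDR under 0.01 and became 3 at an FDR under 0.1, where the 184-nt exon of SRSF4 (-0.5) was added. Without a minimum difference, 6 events and 6 exons in 5 genes passed, the additions being the 54-nt exon of SRSF10 (0.076) and the exons of SRSF2 (0.026), SRSF6 (-0.039, 268 nt) and SRSF7 (0.071, 36 nt). At a minimum difference of 0.2, 1 event, 1 exon and 1 gene remained: the SRSF10 exon (0.122) no longer passed, by construction. Under Bonferroni correction the count was also 1 for events, exons and genes, and the SRSF11 exon (-0.597) no longer passed. Correcting the lowest p-value of each exon for its number of events gave 2 exons. The number of early-stop exons was 14 under the looser match, and 20 exons lay in a transcript annotated for nonsense-mediated decay, which also holds coding exons. A length divisible by 3 had a share of 56.5% over events and 60.5% over unique exons. No paired analysis was possible because clone numbers stand in the labels alone and not beside the deposited values. For the same reason leaving out each clone was not run, so how far 1 clone decides a call is not shown.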
